A study of Mus musculus with 12 samples.

Results

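The genes described here encode the initiation and elongation factors of cytosolic translation. They were taken by symbol (Eif1 to Eif6 and Eef1 or Eef2, with any ending) from the 56953 rows of each count table, where 76 rows matched. Left out were 4 Eif2ak kinase genes, 4 X- or Y-linked genes and 8 symbols with the ending -ps, which left 60 rows. Of these, 59 reached at least 1 CPM (counts scaled to a common library size) in at least 3 of the 12 libraries and are the members, and Eif4e1b stayed under that minimum. All 59 members were among the 19278 genes tested. The libraries hold poly(A) RNA of whole spinal cord from 4 groups of 3 mice, labelled as independent biological replicates: Ddx20 cKO and control at 4 weeks, and Ddx20 cKO and control at 4.5 weeks after tamoxifen. The cKO line joins loxP-flanked Ddx20 alleles with a Plp-CreER transgene, a tamoxifen-activated recombinase that acts in oligodendrocyte-lineage cells, so most other cells of the cord keep the gene. The labels do not give the alleles of the control mice, and they give neither age nor sex. In whole tissue, fewer cells of a type and less RNA per cell cannot be told apart.

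Translation begins when the eIF2 complex brings the initiator tRNA to the small ribosomal subunit together with eIF1, eIF1A, eIF3 and eIF5. The eIF4 factors bind the cap and unwind the leader of the message, eIF5B joins the large subunit, and the eEF1 and eEF2 factors then feed the ribosome with aminoacyl-tRNA and move it along. Messages of ribosomal proteins, of the eEF1 and eEF2 factors and of several eIF3 subunits start with a C followed by a run of pyrimidines, the 5′ terminal oligopyrimidine (TOP) motif, which places their translation under mTORC1 control. In humans, inherited changes in any eIF2B subunit cause vanishing white matter disease, a loss of myelinated tissue.

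The libraries held 33104560 to 47677267 counts each. Ddx20, the targeted gene, showed no fall in libraries labelled cKO: it had 10.2, 11.1 and 9.90 CPM, against 11, 9.78 and 11.1 CPM in controls at 4 weeks, and 12.4, 11.1 and 13.3 CPM, against 9.16, 10.6 and 9.71 CPM in controls at 4.5 weeks (exact 2-sided permutation p of 0.9 and 0.1, the smallest possible being 0.1). In edgeR's fit it was higher at 4.5 weeks (log2 fold change 0.33, adjusted p 0.0134). A deleted exon cannot be seen in counts summed over the gene. Xist had at most 3 counts in the 4-week controls and in cKO library 3 of 4 weeks, and 13563 to 30525 counts in the other 8 libraries, so sex was not balanced between the groups. Summed markers of sensory ganglion and Schwann cells reached 540 CPM in control library 1 of 4.5 weeks, and those of skeletal muscle 127 CPM in control library 2 of that time, so counts are also given without these libraries. All 8 oligodendrocyte markers were lower and all 8 microglia and macrophage markers higher in libraries labelled cKO at both times. Of 8 neuron markers, 3 were lower at 4 weeks and 8 at 4.5 weeks. Of 6 astrocyte markers, 5 were lower and 1 higher at both times (median log2 fold change -1.13 at 4 weeks and -0.58 at 4.5 weeks). None of 5 blood markers was called at 4 weeks, and all 5 were lower at 4.5 weeks (median -3.79). The summed neuron markers held 6574 to 7169 CPM in libraries labelled cKO, against 7568 to 8784 CPM in controls at 4 weeks, and 2366 to 2495 CPM, against 9601 to 9985 CPM in controls at 4.5 weeks. The summed microglia and macrophage markers held 882 to 1582 CPM, against 323 to 330 CPM in controls at 4 weeks, and 5451 to 6180 CPM, against 270 to 288 CPM in controls at 4.5 weeks. No marker of these lists was at 0 in every library, and their part in the results on the members was not tested.

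RefSeq start windows of GRCm38.p6 were found for 45 of the 59 members. Each window runs from 30 bases before to 30 bases from the annotated start, and it was searched on the transcript strand for a C followed by at least 6 bases that are each C or T, the letters a TOP message would begin with. A gene was counted if any of its windows held the run. This was so for 10 of 19 Eef and Eif3 members with a window (52.6%) and for 7 of 26 other members (26.9%). Of all genes with a window, it was so for 8026 of 27025 (29.7%). The 10 include Eef1a2, Eef1e1, Eef1akmt2 and Eef2k, which a narrower TOP set described below leaves out. The rest of the 10 are Eef1a1, Eef2, Eif3f, Eif3k, Eif3l and Eif3m. The windows shown are those of members that recur in the results, with every such run in capitals. Eif3f holds 3 runs and Eif3l 2. A run was counted wherever it stood in the window, so it need not be where a message begins. Of the Eif3f runs, the one nearest the 5′ end stops before the annotated start, and the last stands after an atg. The annotated starts were not measured in these libraries. In the Eef1a1 window a TATA-like stretch stands after the annotated start, at the 3′ end, and the marked run stands before that stretch. Whether that run lies in the Eef1a1 message was not tested.
Eef1a1, chr9:78481695-78481754, minus strand: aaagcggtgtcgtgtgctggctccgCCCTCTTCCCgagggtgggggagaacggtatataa
Eef2, chr10:81176601-81176660, plus strand: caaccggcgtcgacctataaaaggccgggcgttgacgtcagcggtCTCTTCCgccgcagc
Eif3f, chr7:108934385-108934444, plus strand: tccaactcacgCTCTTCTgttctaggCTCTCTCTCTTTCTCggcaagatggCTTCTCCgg
Eif3l, chr15:79075193-79075252, plus strand: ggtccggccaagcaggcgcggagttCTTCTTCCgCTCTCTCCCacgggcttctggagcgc
Eif4b, chr15:102073743-102073802, plus strand: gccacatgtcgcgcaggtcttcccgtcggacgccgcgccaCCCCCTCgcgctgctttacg
Eef1b2, chr1:63176801-63176860, plus strand: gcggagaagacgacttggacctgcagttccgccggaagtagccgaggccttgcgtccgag
Eif4a2, chr16:23107438-23107497, plus strand: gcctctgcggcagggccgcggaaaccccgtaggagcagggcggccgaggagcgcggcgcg
Eif5a2, chr3:28781247-28781306, plus strand: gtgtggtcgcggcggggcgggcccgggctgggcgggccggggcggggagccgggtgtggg
The last 3 windows hold no such run. Eef1b2 rose at both times, Eif4a2 fell at 4.5 weeks, and Eif5a2 fell at both times. Among Eef and Eif3 members, the median log2 fold change at 4.5 weeks was 0.31 with the run and 0.34 without it, and among the other members it was -0.03 with the run and 0.11 without it.

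More members were higher than lower in the libraries labelled cKO, and at 4.5 weeks Eef1a1, Eif4a1 and Eif5a rose while their paralogues Eef1a2, Eif4a2 and Eif5a2 fell. Calls are those of edgeR's quasi-likelihood test with an adjusted p under 0.05. At 4 weeks 29 of 59 members rose and 3 fell, where 37.2% of all genes tested were called (20.1% higher and 17.2% lower). At 4.5 weeks 29 rose and 13 fell, where 65.9% of all genes were called (33.3% higher and 32.6% lower). The median log2 fold change of the members, cKO minus control, was 0.20 at 4 weeks and 0.15 at 4.5 weeks, beside 0.01 and 0.02 for all genes tested. In 30 members all 3 libraries labelled cKO lay above all 3 controls at 4 weeks and in 5 below them (24.1% and 23.1% of all genes). At 4.5 weeks these counts were 33 above and 14 below (36.8% and 35.6% of all genes). Both comparisons rest on their own controls: 23 members rose at both times, Eif5a2 and Eif4g3 fell at both, and Eif2b4 rose at 4 weeks and fell at 4.5 weeks. Without control libraries 1 and 2 of 4.5 weeks, 21 members rose and 13 fell at 4.5 weeks, and the calls lost were those of Eef1g, Eef2, Eif1a, Eif2s1, Eif3k, Eif4e2, Eif5a and Eif5b (adjusted p 0.0566 to 0.296). Against a 1.5-fold change 2 members were called at 4 weeks and 13 at 4.5 weeks. Of all genes called in that test, 80.5% were higher at 4 weeks and 55.4% at 4.5 weeks. The share of all genes called in it is not given here, and whether the members changed less than other genes was not tested.

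**Figure D1:**
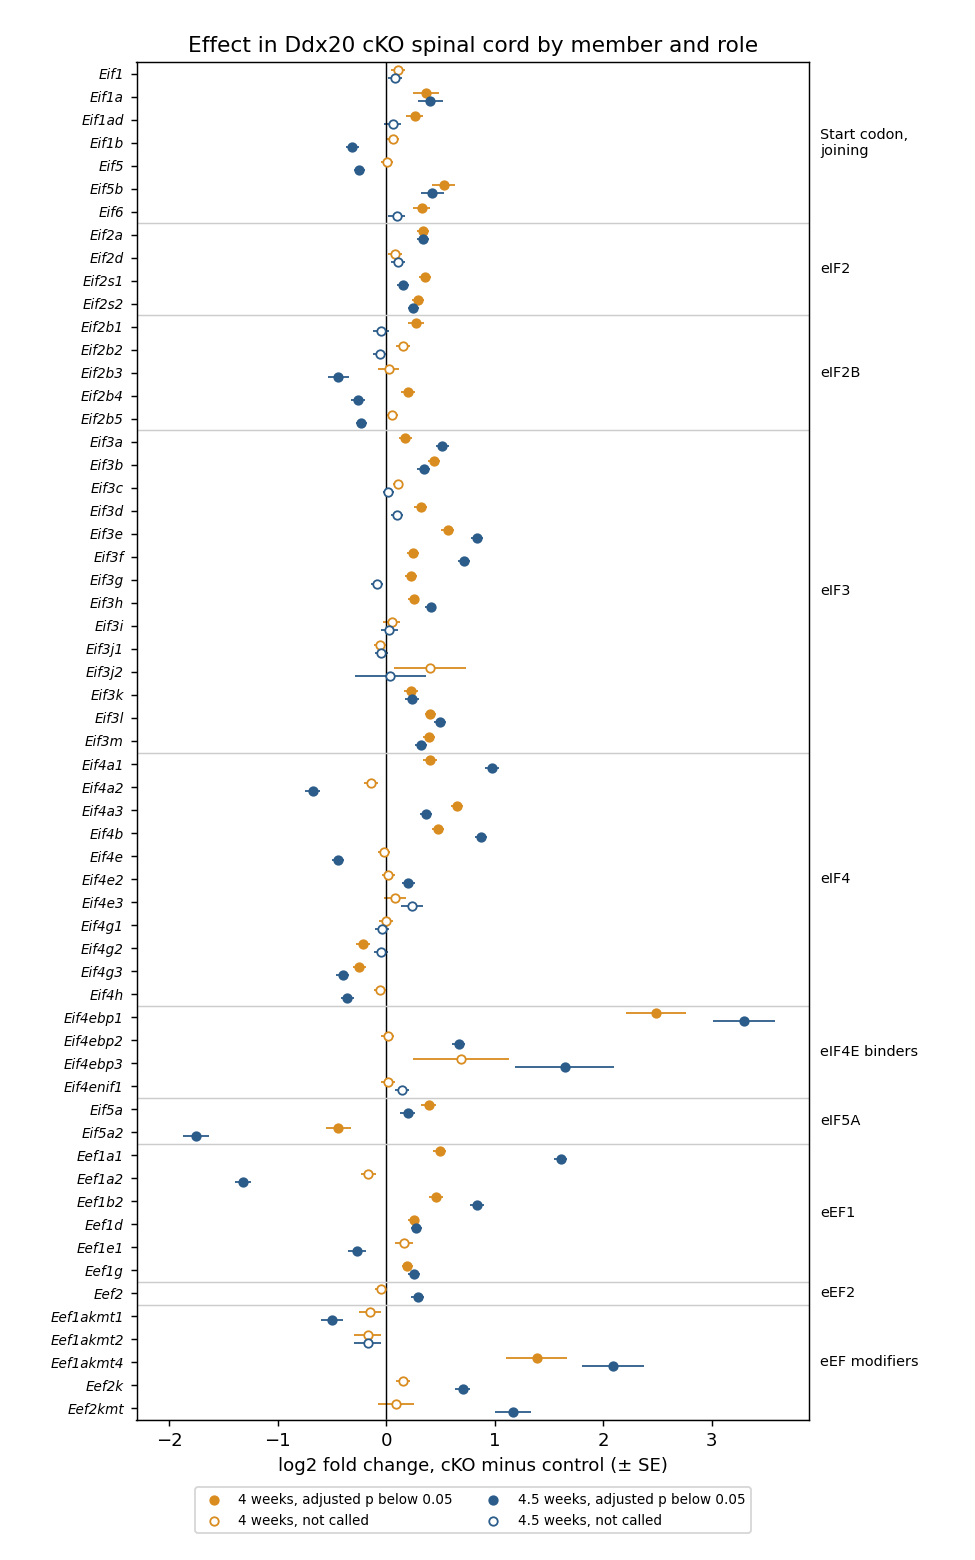
Log2 fold change of each of the 59 members, cKO minus control, at 4 weeks (orange) and 4.5 weeks (blue), with its standard error (n = 3 libraries per group) and filled points for members called at an adjusted p below 0.05. Members run down the page by role. Eif4ebp1 stands farthest to the right at both times (2.49 and 3.30) and Eif5a2 farthest to the left at 4.5 weeks (-1.75).

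The 26 members named Eef or Eif3, families in which many messages are known to carry a TOP motif, stood higher than the 33 others. At 4 weeks 15 of the 26 rose and none fell, with a median log2 fold change of 0.23, and 14 of the other 33 rose and 3 fell, with a median of 0.11. At 4.5 weeks 16 of the 26 rose and 3 fell (Eef1a2, Eef1e1 and Eef1akmt1), with a median of 0.28. Of the other 33, 13 rose and 10 fell, with a median of 0.10. Among all genes tested, 20.1% were higher and 17.2% lower at 4 weeks, and 33.3% higher and 32.6% lower at 4.5 weeks. The counts of the other 33 at 4.5 weeks are near these shares. Between the control groups, 4.5 minus 4 weeks, the median was -0.14 for the 26 and -0.03 for the 33. These control medians lay about as far apart as the cKO medians at 4 weeks, in the opposite order. The control groups differ in sex as well as time. Without the modifying enzymes, Eef1a2 and Eef1e1, which were not counted as TOP messages in this narrower set, 14 of 19 rose at 4 weeks and 13 of 19 at 4.5 weeks, and the medians were 0.25 and 0.29. The narrower set leaves out all 3 members that fell, so that none of it fell follows from the choice, and the windows of Eef1a2 and Eef1e1 do hold the pyrimidine run. Per library, each member was set against the mean of its own time's controls, and the median of the others was taken from that of Eef and Eif3 on the log2 scale. This gave 0.08, 0.09 and 0.12 in libraries labelled cKO, against 0.03, 0.03 and -0.05 in controls at 4 weeks. At 4.5 weeks it gave 0.21, 0.20 and 0.15 in libraries labelled cKO, against -0.0032, -0.0090 and 0.022 in controls. The libraries labelled cKO stood above the controls at both times. The difference of the medians at 4 weeks was 0.12, and it was 0.06 without control library 3 and 0.09 with a trend on transcript length removed. At 4.5 weeks it was 0.18, and 0.21 with that trend removed. Eef and Eif3 genes are shorter (median exon length of 2794.5 bases, against 4951 bases in the others and 3856 bases in all genes tested), and the slope of log2 level on log2 length ran lower in libraries labelled cKO (-0.12 to -0.09, against -0.02 to 0.04 in controls at 4 weeks, and -0.01 to 0.02, against 0.08 to 0.12 in controls at 4.5 weeks). The part of this slope in the difference was tested only by that setting.

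**Figure D2:**
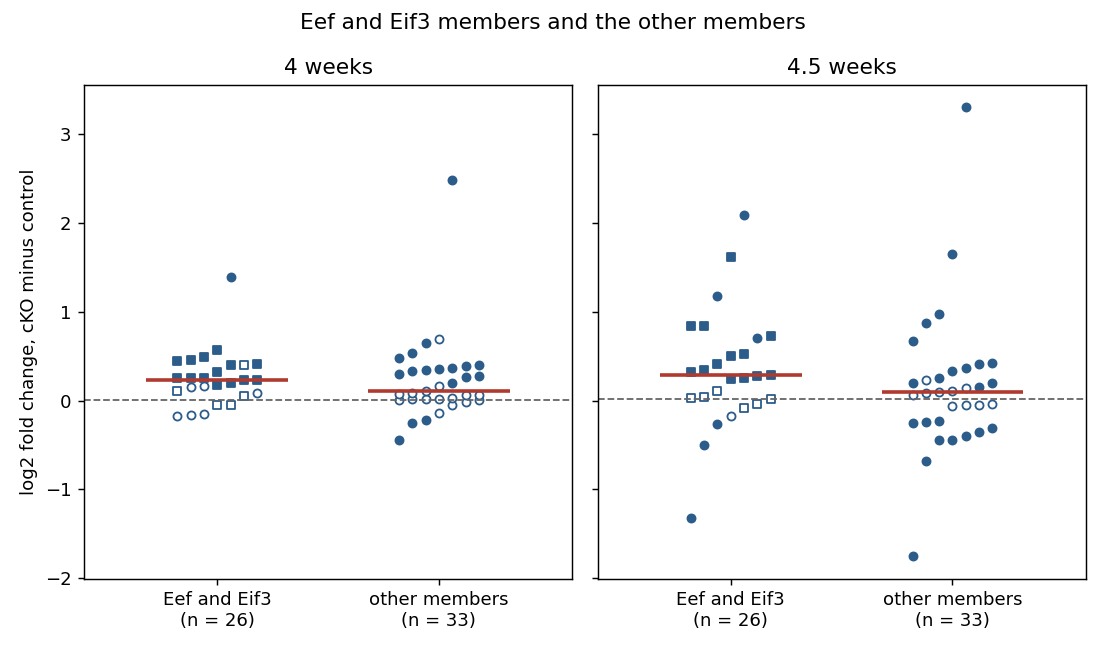
Log2 fold change, cKO minus control, of the 26 Eef and Eif3 members and of the 33 other members at 4 and 4.5 weeks. Each point is a gene, squares mark the 19 genes without modifiers, Eef1a2 and Eef1e1, filled points were called, red lines are medians (0.23 and 0.11 at 4 weeks, 0.28 and 0.10 at 4.5 weeks), and dashed lines are the medians of all genes tested.

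Of the 4 genes that bring the initiator tRNA, Eif2a, Eif2s1 and Eif2s2 rose at both times (20.1% of all genes were higher at 4 weeks and 33.3% at 4.5 weeks), and Eif2d, whose product delivers tRNA without GTP, was not called (log2 fold changes 0.08 and 0.11). Eif2a, which encodes a tRNA carrier separate from the eIF2 complex, had 45.4, 46.9 and 44.6 CPM in libraries labelled cKO, against 35.5, 36.6 and 35.8 CPM in controls at 4 weeks. At 4.5 weeks it had 50.4, 48.2 and 54.2 CPM, against 40.0, 39.7 and 41.1 CPM in controls. No library labelled cKO overlapped a control at either time, and the log2 fold change was 0.34 ± 0.06 (SE) at both (adjusted p 0.000444 and 0.000131). Eif2s1, the alpha subunit that the eIF2 kinases phosphorylate, had 46.6, 53.1 and 48.6 CPM, against 38.0, 39.6 and 38.3 CPM in controls at 4 weeks, and 44.8, 43.8 and 44.4 CPM, against 40.6, 39.1 and 39.7 CPM in controls at 4.5 weeks. The groups lay apart at both times, with log2 fold changes of 0.36 ± 0.06 (adjusted p 0.000382) and 0.15 ± 0.06 (adjusted p 0.0286). Its call at 4.5 weeks was lost without control library 2 or 3 or any of the 3 libraries labelled cKO of that time (adjusted p 0.0531 to 0.0998).

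Of the 5 subunits of eIF2B, the exchange factor that reloads eIF2 with GTP, Eif2b1 and Eif2b4 rose at 4 weeks and none fell (20.1% of all genes higher and 17.2% lower). At 4.5 weeks Eif2b3, Eif2b4 and Eif2b5 fell (32.6% of all genes lower), none rose, and Eif2b1 and Eif2b2 were not called (-0.05, adjusted p 0.593, and -0.06, adjusted p 0.482). The difference of the effects between the times was negative and called in 4 of 5, all but Eif2b2 (-0.21 ± 0.09, adjusted p 0.0884), where 21.9% of all genes were called lower in this test. Eif2b3, the gamma subunit, had 15.8, 16.1 and 13.6 CPM in libraries labelled cKO, against 15.7, 14.7 and 14.3 CPM in controls at 4 weeks, and 10.5, 12.2 and 12.2 CPM, against 14.7, 16.6 and 16 CPM in controls at 4.5 weeks. The groups overlapped at 4 weeks and lay apart at 4.5 weeks (log2 fold change -0.44 ± 0.10, adjusted p 0.00136). Eif2b5, the catalytic epsilon subunit, had 64.6, 66.9 and 63.0 CPM, against 61.9, 64.1 and 60.7 CPM in controls at 4 weeks, and 51.1, 49.9 and 46.8 CPM, against 58.6, 57.4 and 57.4 CPM in controls at 4.5 weeks. It overlapped the controls at 4 weeks and lay under all of them at 4.5 weeks (-0.23 ± 0.05, adjusted p 0.00141). Eif2b4, the delta subunit, averaged 39.8 ± 0.903 CPM in libraries labelled cKO and 34.6 ± 2.55 CPM in controls at 4 weeks (SD, n = 3 each), and 27.6 ± 0.775 CPM and 33 ± 1.66 CPM at 4.5 weeks. Its call at 4 weeks was lost in 9 alternatives besides the test against a 1.5-fold change, among them without control library 3 (log2 fold change 0.14, adjusted p 0.122) and without any of the libraries labelled cKO of that time (adjusted p 0.0521 to 0.0886). With a sex term neither Eif2b1 nor Eif2b4 was called at 4 weeks (adjusted p 0.079 and 0.246). The differences between the times of Eif2b1, Eif2b3 and Eif2b5 were also no longer called with that term (adjusted p 0.0805, 0.157 and 0.0559). That of Eif2b1 was also lost without control library 1 of 4 weeks, cKO library 1 of 4 weeks, control library 1 or 3 of 4.5 weeks or cKO library 1 of 4.5 weeks (adjusted p 0.0505 to 0.0625).

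Of 7 genes listed here under start codon selection and subunit joining, 4 rose at 4 weeks (Eif1a, Eif1ad, Eif5b and Eif6) and none fell. At that time 20.1% of all genes were higher and 17.2% lower. The part of the Eif1ad product in these steps was not tested. At 4.5 weeks Eif1a and Eif5b rose and Eif1b and Eif5 fell, which is no more than the shares of all genes (33.3% higher and 32.6% lower). Eif1b, a paralogue of the start-codon gatekeeper Eif1, had 119, 132 and 134 CPM in libraries labelled cKO, against 124, 128 and 118 CPM in controls at 4 weeks, and 82.5, 77.1 and 78.8 CPM, against 103, 94.8 and 98.5 CPM in controls at 4.5 weeks. The groups overlapped at 4 weeks, and at 4.5 weeks every library labelled cKO was lower (-0.31 ± 0.06, adjusted p 0.000429). Eif5, which makes eIF2 hydrolyse its GTP, had 278, 279 and 271 CPM, against 272, 264 and 288 CPM in controls at 4 weeks, and 267, 260 and 283 CPM, against 314, 318 and 328 CPM in controls at 4.5 weeks. It was within the controls' range at 4 weeks and under all of them at 4.5 weeks (-0.25 ± 0.05, adjusted p 0.00125). Eif5b, which joins the large subunit, averaged 100 ± 13 CPM in libraries labelled cKO and 69.3 ± 8.82 CPM in controls at 4 weeks (SD, n = 3 each; adjusted p 0.0017, and 0.0863 with a sex term). Eif1, the gatekeeper itself, was not called (0.11 and 0.08), and Eif6, which keeps the subunits apart, was called at 4 weeks (0.33, adjusted p 0.00559, and 0.10, adjusted p 0.28, at 4.5 weeks). Eif1a, whose product works beside eIF1, had a log2 fold change of 0.37 at 4 weeks, where its groups overlapped, and of 0.41 at 4.5 weeks. Eif1a and Eif1ad lost their calls at 4 weeks without control library 1 or 3 or cKO library 2 or 3, and Eif1a also without control library 2 (adjusted p 0.0553 to 0.135). Neither was called at 4 weeks with a sex term (adjusted p 0.122 and 0.0736).

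Most eIF3 subunits, which form the scaffold on the small subunit, rose and none fell at either time. At 4 weeks 10 of 14 rose (20.1% of all genes higher), and at 4.5 weeks, where 33.3% of all genes were higher, 8 of 14 did (Eif3a, Eif3b, Eif3e, Eif3f, Eif3h, Eif3k, Eif3l and Eif3m). Eif3e had 78.5, 87.6 and 80.7 CPM in libraries labelled cKO, against 54.2, 58.3 and 54.3 CPM in controls at 4 weeks, and 95.7, 90.9 and 97.5 CPM, against 52.9, 52.3 and 53.6 CPM in controls at 4.5 weeks. Every library labelled cKO was above every control, with log2 fold changes of 0.57 ± 0.06 (adjusted p 9.23e-06) and 0.84 ± 0.06 (adjusted p 3.68e-08). Eif3f had 128, 126 and 135 CPM, against 112, 112 and 103 CPM in controls at 4 weeks, and 157, 164 and 170 CPM, against 95.9, 98 and 104 CPM in controls at 4.5 weeks. It was above all controls at both times, and its effect was larger at 4.5 weeks (0.72 ± 0.06, against 0.25 ± 0.06 at 4 weeks), with a difference of 0.47 ± 0.08 (adjusted p 0.000406). Eif3a, the largest scaffold subunit, averaged 293 ± 13.1 CPM in libraries labelled cKO and 205 ± 6.53 CPM in controls at 4.5 weeks (log2 fold change 0.52 ± 0.06, adjusted p 6.7e-06). Eif3g moved the other way between the times, with log2 fold changes of 0.23 at 4 weeks (adjusted p 0.00728) and -0.08 at 4.5 weeks (adjusted p 0.222) and a called difference of -0.31 ± 0.08. Eif3c, Eif3i, Eif3j1 and Eif3j2 were not called at either time, and Eif3j1 and Eif3j2 are near-identical copies whose counts are uncertain. The 4-week call of Eif3a was lost without any of control libraries 1 and 2 or cKO libraries 2 and 3 of 4 weeks, or control library 2 of 4.5 weeks (adjusted p 0.0581 to 0.165), and that of Eif3k without control library 3 (0.053). Those of Eif3g and Eif3h were lost with the length trend removed (0.0588 and 0.073), and those of Eif3a and Eif3k with a sex term (0.173 and 0.0896).

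Of the 11 eIF4 genes of cap binding, scaffold and helicase, 3 rose and 2 fell at 4 weeks, and 4 rose and 4 fell at 4.5 weeks. These counts are near the shares of all genes (20.1% higher and 17.2% lower at 4 weeks, 33.3% higher and 32.6% lower at 4.5 weeks), so what follows describes single genes. Eif4a1, the RNA helicase of the cap complex, had 224, 266 and 252 CPM in libraries labelled cKO, against 185, 195 and 182 CPM in controls at 4 weeks, and 337, 358 and 355 CPM, against 177, 176 and 180 CPM in controls at 4.5 weeks. It lay above all controls at both times (0.40 ± 0.06, adjusted p 0.000362, and 0.98 ± 0.06, adjusted p 3.19e-08). Its paralogue Eif4a2 had 555, 542 and 547 CPM, against 576, 598 and 635 CPM in controls at 4 weeks, and 360, 374 and 427 CPM, against 614, 618 and 625 CPM in controls at 4.5 weeks. It lay under all controls at both times, but was called only at 4.5 weeks (-0.14 ± 0.07, adjusted p 0.121, and -0.68 ± 0.07, adjusted p 1.33e-06). Eif4b, the cofactor of the helicase and itself a TOP message, had 274, 261 and 262 CPM, against 190, 183 and 199 CPM in controls at 4 weeks, and 413, 379 and 393 CPM, against 213, 213 and 220 CPM in controls at 4.5 weeks. No groups overlapped (0.48 ± 0.05, adjusted p 2.63e-05, and 0.87 ± 0.05, adjusted p 1.89e-08). The other helicase cofactor, Eif4h, fell at 4.5 weeks (-0.36 ± 0.06, adjusted p 0.000124), as did the cap-binding protein gene Eif4e (-0.44 ± 0.05, adjusted p 1.22e-05), with 79.4 ± 5.06 CPM in libraries labelled cKO and 108 ± 4.40 CPM in controls (SD, n = 3 each). The main scaffold gene Eif4g1 was not called (log2 fold changes 0.00 and -0.03, 95% intervals -0.14 to 0.14 and -0.17 to 0.11), and its paralogue Eif4g3 fell at both times (-0.25 and -0.40, adjusted p 0.00633 and 6.64e-05). Eif4g2, a relative of the scaffold that does not bind eIF4E, fell at 4 weeks (-0.21, adjusted p 0.0184, and 0.0529 to 0.071 without control library 3 or cKO library 2 or 3) and was not called at 4.5 weeks (-0.05). With the length trend removed, neither Eif4g2 nor Eif4g3 was called at 4 weeks (adjusted p 0.109 and 0.0528). Eif4g2 was also not called at 4 weeks with a sex term (adjusted p 0.0746). The eIF4E relatives Eif4e2 and Eif4e3 had log2 fold changes of 0.02 and 0.08 at 4 weeks and of 0.20 and 0.24 at 4.5 weeks, where Eif4e2 was called (adjusted p 0.0096, and 0.0513 without control library 2) and Eif4e3 was not. Eif4a3, the helicase of the exon junction complex rather than of the cap, rose at both times, with a smaller effect at 4.5 weeks (0.65 ± 0.06 at 4 weeks and 0.37 ± 0.06 at 4.5 weeks). That difference was -0.28 ± 0.08 (adjusted p 0.0141, and 0.0585 with a sex term).

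The eIF4E-binding proteins, which block the cap-binding protein when mTORC1 is off, held the largest rise among the members. Eif4ebp1 had 5.93, 14.3 and 11.7 CPM in libraries labelled cKO, against 1.90, 2.09 and 1.71 CPM in controls at 4 weeks, and 16.5, 13.4 and 12.5 CPM, against 1.56, 1.63 and 1.12 CPM in controls at 4.5 weeks. Every library labelled cKO was above every control, and at 4 weeks cKO library 1 was the lowest of its group. That library was also the lowest of its group in summed microglia and macrophage markers (882 CPM) and the highest in those of oligodendrocytes (18752 CPM), astrocytes (1881 CPM) and blood (320.3 CPM), and the part of these in its level was not tested. The rise was 5.61-fold at 4 weeks (2.49 ± 0.28 log2, adjusted p 2.63e-05) and 9.85-fold at 4.5 weeks (3.30 ± 0.29 log2, adjusted p 4.3e-07). Eif4ebp2 had 66.9, 62.3 and 65.6 CPM, against 62.9, 62.4 and 67.7 CPM in controls at 4 weeks, and 116, 104 and 116 CPM, against 67.5, 72.3 and 72.2 CPM in controls at 4.5 weeks. The groups overlapped at 4 weeks (0.01 ± 0.06, 95% interval -0.12 to 0.14) and lay apart at 4.5 weeks (0.67 ± 0.06, adjusted p 5.4e-07), with a called difference of 0.65 ± 0.08 (adjusted p 5.46e-05). Eif4ebp3 was near the minimum, with 1.95, 1.34 and 1.78 CPM, against 1.14, 1.42 and 0.588 CPM in controls at 4 weeks, and 2.11, 1.45 and 2.13 CPM, against 1.03, 0.597 and 0.201 CPM in controls at 4.5 weeks. The controls varied widely, and the groups lay apart at 4.5 weeks only (1.65 ± 0.46, adjusted p 0.00665). Its gene adjoins Ankhd1, and the library kit does not mark strand, so reads shared between them cannot be told apart. Eif4enif1, which carries eIF4E into the nucleus, was not called (0.02 and 0.15).

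eIF5A, the factor that carries the modified lysine hypusine and relieves stalled ribosomes, is made from a broadly active gene, Eif5a, and from Eif5a2. Eif5a had 309, 352 and 340 CPM in libraries labelled cKO, against 254, 268 and 241 CPM in controls at 4 weeks, and 231, 251 and 266 CPM, against 217, 209 and 225 CPM in controls at 4.5 weeks. It was above all controls at both times (0.39 ± 0.07, adjusted p 0.000813, and 0.20 ± 0.07, adjusted p 0.0212). Eif5a2 had 101, 102 and 87.7 CPM, against 119, 119 and 156 CPM in controls at 4 weeks, and 51.0, 58.3 and 66.7 CPM, against 199, 191 and 202 CPM in controls at 4.5 weeks. It was under all controls at both times (-0.44 ± 0.11, adjusted p 0.00899, and -1.75 ± 0.12, adjusted p 3.85e-08), a 3.37-fold fall at 4.5 weeks, and its difference between the times, -1.31 ± 0.16, was the most negative of the members (adjusted p 3.88e-05). Part of that difference lay in the controls, where Eif5a2 was higher at 4.5 than at 4 weeks (0.59 ± 0.11, adjusted p 0.00527), and those groups differ in sex as well as time. The 4.5-week call of Eif5a was lost without control library 1 or 2 or cKO library 2 or 3 of that time (adjusted p 0.0535 to 0.0953). The hypusine enzymes, Dhps and Dohh, both fell at 4.5 weeks (-0.31 and -0.39), and Dohh rose at 4 weeks (0.30, adjusted p 0.0112).

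In the elongation factor 1 genes, Eef1a1 rose at both times and Eef1a2 fell at 4.5 weeks. Eef1a1, which encodes the general carrier of aminoacyl-tRNA and lies on chromosome 9, had 2366, 2417 and 2490 CPM in libraries labelled cKO, against 1751, 1748 and 1659 CPM in controls at 4 weeks, and 4866, 4542 and 4624 CPM, against 1595, 1488 and 1511 CPM in controls at 4.5 weeks. The groups lay far apart at both times (0.50 ± 0.06, adjusted p 4.62e-05, and 1.61 ± 0.06, adjusted p 4.45e-10), a 3.05-fold rise at 4.5 weeks, and the effects differed by 1.12 ± 0.08 (adjusted p 1.12e-06). Eef1a2 on chromosome 2, whose product takes over from Eef1a1 in mature neurons and muscle, had 637, 694 and 718 CPM, against 755, 751 and 787 CPM in controls at 4 weeks, and 309, 326 and 338 CPM, against 737, 811 and 878 CPM in controls at 4.5 weeks. It lay under all controls at both times, and it fell 2.50-fold at 4.5 weeks (-1.32 ± 0.07, adjusted p 8.37e-09). At 4 weeks it was not called (-0.16 ± 0.07, adjusted p 0.0973), although it was with DESeq2 (-0.18, adjusted p 0.0315) and with the length trend removed (-0.27, adjusted p 0.0117). The exchange factor subunits Eef1b2, Eef1d and Eef1g rose at both times, with log2 fold changes of 0.46, 0.26 and 0.20 at 4 weeks and 0.84, 0.28 and 0.26 at 4.5 weeks. Eef1e1, a subunit of the multi-tRNA synthetase complex rather than of eEF1, fell at 4.5 weeks (-0.27 ± 0.08, adjusted p 0.0127). Eef1g lost its 4-week call without cKO library 2 or 3 (adjusted p 0.0598 and 0.0605), and Eef1e1 its 4.5-week call without control library 3 or cKO library 1 (0.0519 and 0.0583). Eef1a1 has processed pseudogenes, and reads that fit several copies were divided by the authors' counting.

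Eef2, which encodes the factor that moves the ribosome by a codon, changed less. It had 1383, 1354 and 1429 CPM in libraries labelled cKO, against 1432, 1394 and 1478 CPM in controls at 4 weeks, and 1835, 1761 and 1762 CPM, against 1388, 1444 and 1546 CPM in controls at 4.5 weeks. The groups overlapped at 4 weeks (-0.05 ± 0.06, 95% interval -0.18 to 0.08) and lay apart at 4.5 weeks (0.29 ± 0.06, adjusted p 0.000827). Its kinase gene Eef2k, whose product inhibits eEF2, had 33.1, 32.7 and 33.8 CPM, against 27.8, 33.2 and 28.6 CPM in controls at 4 weeks, and 57.7, 54.6 and 56.8 CPM, against 33.7, 34.5 and 35.5 CPM in controls at 4.5 weeks. It overlapped the controls at 4 weeks and lay well above them at 4.5 weeks (0.71 ± 0.07, adjusted p 9.6e-07). Eef2kmt, which methylates a lysine of eEF2, had 4.01, 5.85 and 5.28 CPM, against 4.94, 4.95 and 4.35 CPM in controls at 4 weeks, and 8.94, 10.7 and 8.22 CPM, against 4.85, 3.81 and 3.72 CPM in controls at 4.5 weeks. Its groups overlapped at 4 weeks and lay apart at 4.5 weeks (1.17 ± 0.17, adjusted p 4.37e-05). Without control libraries 1 and 2 of 4.5 weeks the 4.5-week call of Eef2 was lost (0.20, adjusted p 0.0916), while Eef2k and Eef2kmt remained called at that time under all 27 alternatives.

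The lysine methyltransferases of eEF1A differed from each other. Eef1akmt4 had 1.98, 3.91 and 2.26 CPM in libraries labelled cKO, against 1.01, 1.11 and 0.998 CPM in controls at 4 weeks, and 3.53, 2.60 and 4.32 CPM, against 0.728, 0.752 and 0.963 CPM in controls at 4.5 weeks. All libraries labelled cKO stood above the controls, with log2 fold changes of 1.39 ± 0.28 (adjusted p 0.00204, and 0.0506 with a sex term) and 2.09 ± 0.28 (adjusted p 2.65e-05). Its gene adjoins Ece2, and reads shared between them cannot be told apart. Eef1akmt1 fell at 4.5 weeks (-0.50 ± 0.10, adjusted p 0.000733), and Eef1akmt2 was not called at either time (-0.17 at both, 95% intervals -0.44 to 0.10 and -0.45 to 0.11).

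**Figure D3:**
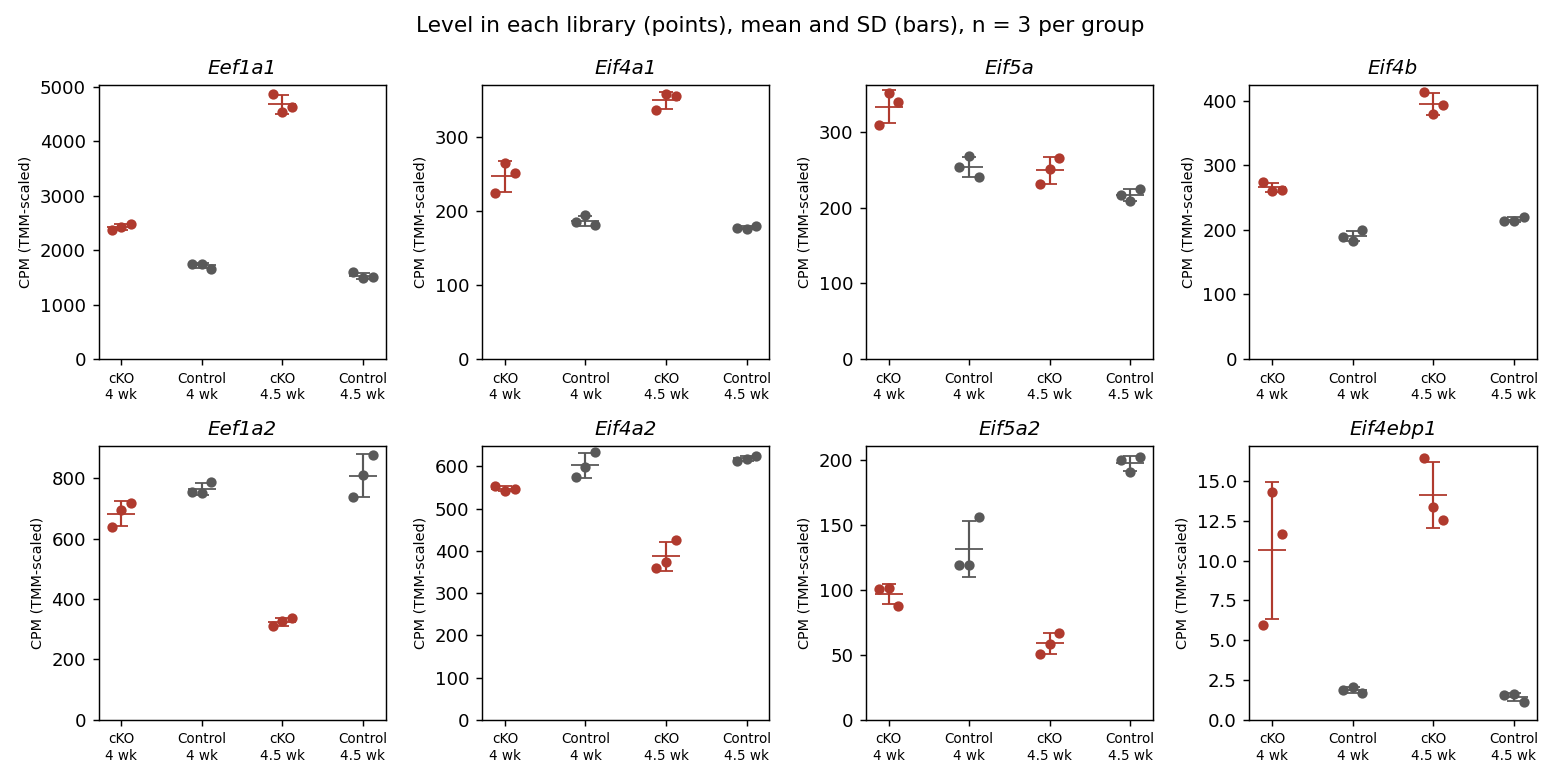
TMM-scaled CPM of 8 members in each library (points), with mean and SD (bars, n = 3 per group), for cKO (red) and control (grey) at 4 and 4.5 weeks. Upper panels show the genes that rose in libraries labelled cKO at 4.5 weeks (Eef1a1, Eif4a1, Eif5a, Eif4b), and under the upper 3 stand the paralogues that fell at that time (Eef1a2, Eif4a2, Eif5a2). Eif4ebp1 is at the lower right.

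For the 3 pairs with a rise in the general gene and a fall in its paralogue, chosen after their values were seen, the log2 ratio of CPM was taken within each library. Eef1a1 over Eef1a2 was 1.89, 1.80 and 1.79 in libraries labelled cKO, against 1.21, 1.22 and 1.08 in controls at 4 weeks, and 3.98, 3.80 and 3.78, against 1.11, 0.88 and 0.78 in controls at 4.5 weeks. Eif4a1 over Eif4a2 was -1.31, -1.03 and -1.12, against -1.64, -1.62 and -1.81 in controls at 4 weeks, and -0.10, -0.06 and -0.26, against -1.80, -1.81 and -1.79 in controls at 4.5 weeks. Eif5a over Eif5a2 was 1.62, 1.79 and 1.95, against 1.10, 1.17 and 0.63 in controls at 4 weeks, and 2.18, 2.11 and 1.99, against 0.12, 0.13 and 0.16 in controls at 4.5 weeks. That the ratios were higher in libraries labelled cKO follows from how the pairs were chosen, and the values are given for their size. Eif1 over Eif1b, a pair without a rise in the general gene, averaged 1.11 ± 0.07 in libraries labelled cKO and 1.06 ± 0.06 in controls at 4 weeks (SD, n = 3 each), where the groups overlapped, and 1.6 ± 0.05 in libraries labelled cKO and 1.2 ± 0.04 in controls at 4.5 weeks. The ratio within a library does not depend on its scaling, and beside it the summed neuron markers were lower at both times, most at 4.5 weeks. The part of neuron number in these ratios was not tested.

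Per kilobase of exon, Eef1a1 held the highest level of the members in all 4 groups: 972 CPM per kb in libraries labelled cKO, against 690 in controls at 4 weeks, and 1876, against 614 in controls at 4.5 weeks. Eef2 came next, at 418, against 432 in controls at 4 weeks, and at 537, against 439 in controls at 4.5 weeks. Eef1a2 followed at 328, against 367 in controls at 4 weeks, and at 156, against 388 in controls at 4.5 weeks. No eIF gene exceeded 140 CPM per kb, the value of Eif5a in libraries labelled cKO at 4 weeks. Summed over genes, the 26 Eef and Eif3 members held 6496 to 6846 CPM in libraries labelled cKO, against 5715 to 5763 CPM in controls at 4 weeks, and 8770 to 9222 CPM, against 5414 to 5679 CPM in controls at 4.5 weeks. The 33 others held 4412 to 4601 CPM, against 4212 to 4460 CPM in controls at 4 weeks, and 4369 to 4547 CPM, against 4491 to 4634 CPM in controls at 4.5 weeks. The first sum lay apart between the groups at both times, and the second overlapped at both. Eef1a1 makes up much of the first: at 4.5 weeks it averaged 4677 ± 169 CPM in libraries labelled cKO and 1531 ± 56.5 CPM in controls (SD, n = 3 each).

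**Figure D4:**
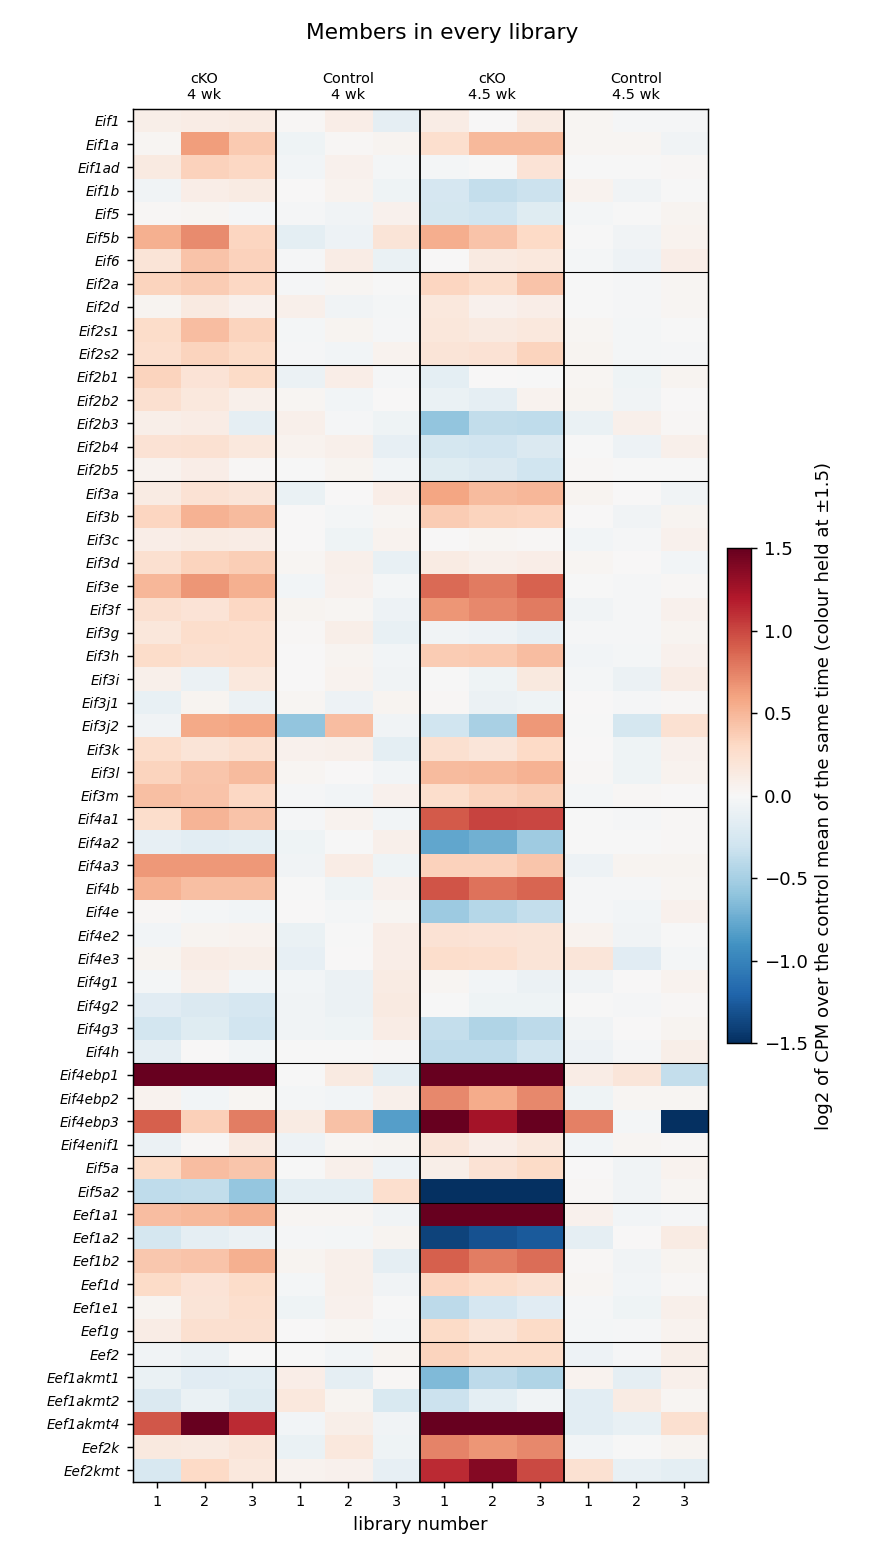
Level of the 59 members in each of the 12 libraries, as the log2 of CPM over the mean of the controls of the same time, with colour held at 1.5 in either direction and rows grouped by role. The Eef1a1, Eif4ebp1 and Eef1akmt4 rows are red and the Eef1a2 and Eif5a2 rows blue in all 3 libraries labelled cKO at 4.5 weeks.

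Other genes of the translation pathway were counted in lists, to be read beside all genes tested, of which 20.1% were higher and 17.2% lower at 4 weeks and 33.3% higher and 32.6% lower at 4.5 weeks. Of 8 other TOP messages outside the ribosome, 6 rose at 4 weeks and 7 at 4.5 weeks and none fell, among them Pabpc1, the poly(A)-binding protein (0.96 and 2.04), Rack1, a ribosome-bound scaffold (0.62 and 1.62), and Tpt1 (0.52 and 1.37). Nap1l1 was the member of that list not called at either time. Cytosolic ribosomal protein genes took 2.32% to 2.58% of the counts in libraries labelled cKO, against 1.55% to 1.80% in controls at 4 weeks, and 2.65% to 2.70%, against at most 1.34% in controls at 4.5 weeks. Of the 6 eIF2 kinase and phosphatase genes, 2 rose and 1 fell at 4 weeks, and 4 rose and 1 fell at 4.5 weeks. The eIF2 kinase activated by double-stranded RNA, Eif2ak2 (1.81 and 1.26), and the stress-induced phosphatase subunit Ppp1r15a (1.5 and 1.66) rose at both times. The heme-regulated kinase Eif2ak1 fell at both (-0.25 and -0.58). Of 12 genes of mTORC1 and its translation effectors, 1 rose and 2 fell at 4 weeks, and 3 rose and 6 fell at 4.5 weeks. The 3 of 12 called at 4 weeks lie under the share of all genes called (37.2%), and the 9 of 12 at 4.5 weeks are near it (65.9%). Mtor itself fell at both times (-0.44 and -0.92), and Deptor, its inhibitor, and Larp1, which binds TOP messages, fell at 4.5 weeks (-1.10 and -0.38). Pdcd4, an inhibitor of the eIF4A helicase, rose at 4.5 weeks (0.56, adjusted p 0.000558). Of 8 termination and recycling genes, Etf1, the stop codon reader, rose at both times (0.29 and 0.58), Hbs1l fell at 4 weeks, and 6 fell at 4.5 weeks, with the largest fall in Gspt2 (-0.93). Among 5 poly(A)-binding genes, Pabpc1 rose at both times and Pabpc4 at 4.5 weeks, and Paip1, Paip2 and Paip2b fell at 4.5 weeks.

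The difference of the cKO effects between the times, 4.5 minus 4 weeks, was called in 25 members, 11 higher and 14 lower, where 40.7% of all genes were called (18.7% higher and 21.9% lower). Of the 11, 8 were Eef or Eif3 members, and of the 14, 11 were others. Between the control groups, 4.5 minus 4 weeks, 7 members were higher and 9 lower, where 16.7% of all genes were called (9.53% higher and 7.21% lower). Of the 9 lower, 6 were Eef or Eif3 members (Eef1akmt2, Eef1b2, Eef1d, Eef1g, Eif3g and Eif3k). With a sex term no gene tested, member or not, was called between the control groups. Time and sex cannot be told apart there.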

How the data were processed

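Whole spinal cord poly(A) RNA of 12 mice (4 groups of 3) was sequenced from a kit that does not mark strand. The deposited tables hold RSEM expected counts per gene made by the authors; per the submitters' processing notes, STAR and the build mm39 were also used (no versions given), and the annotation release is not given in the sources used here. Between 3.25% and 3.81% of the values were not whole, and all were rounded. Sample columns left unused numbered 0. Totals were 33104560 to 47677267 counts, and replicate libraries differed beyond sampling noise. Filtering used filterByExpr of edgeR 4.0.16 (R 4.3.3); counts were scaled by TMM and fitted with a mean per group over all 12 libraries. The quasi-likelihood test with Benjamini-Hochberg adjustment over 19278 genes gave 4 contrasts, called at 0.05. CPM are TMM-scaled.

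On simulated data for the 4-week comparison (19278 genes), the fit recovered 24%, 64%, 96% and 100% of 50 genes each changed 1.25-, 1.5-, 2- and 3-fold, with 12 false calls. Only these genes were changed there, all with high counts, while 37.2% of all genes tested were called at 4 weeks in the data. The adjustment was therefore stricter in the simulation, and its shares do not give the recovery among the members. The members and lists were chosen with earlier results of these data known. Any member could be named. Values in every library are given for the 2 called members in each role with the smallest adjusted p at either time. They are also given for the 4 members with the largest difference of effects in each direction. Eif1a received its role after the symbols were seen. Start windows come from RefSeq (GRCm38.p6), and lengths and chromosomes from GENCODE M21; no coordinates were mixed with the files' build. Lengths could be matched for 18806 genes tested. A row without a symbol that GENCODE M21 names by the pattern (1 row) was not included. Alternatives were DESeq2 1.42.0 (size factors, Wald test), limma 3.58.1 (voom), other scalings and filters, a robust spread, each time alone, a replicate block, a 1.5-fold test, gene classes left out, a sex term read from Xist, a length trend removed, control libraries 1 and 2 of 4.5 weeks left out, and each library left out. The labels call the samples independent biological replicates. Replicate numbers did not pair the samples.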

Additional observations from a re-analysis of the deposited data

Results flagged for a closer look

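The cKO effect differed between the times in 25 members by the test of the difference itself (4.5 minus 4 weeks, edgeR, log2 scale), where 40.7% of all genes were called. The 4-week and 4.5-week libraries also differ in sex as read from Xist, and the part of sex was tested only by the sex term. The difference was positive in 11 members: Eef1a1 (1.12), Eef2kmt (1.08), Eif4ebp2 (0.65), Eif4a1 (0.57), Eef2k (0.55), Eif3f (0.47), Eif4b (0.40), Eef1b2 (0.38), Eef2 (0.34), Eif3a (0.34) and Eif3e (0.27). It was negative in 14 members: Eif5a2 (-1.31), Eef1a2 (-1.16), Eif4a2 (-0.54), Eif2b3 (-0.47), Eif2b4 (-0.46), Eef1e1 (-0.43), Eif4e (-0.42), Eif1b (-0.37), Eif2b1 (-0.32), Eif3g (-0.31), Eif4h (-0.30), Eif2b5 (-0.29), Eif4a3 (-0.28) and Eif5 (-0.25).

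With a sex term the difference was no longer called for Eef1b2, Eef2, Eif2b1, Eif2b3, Eif2b5, Eif4a3 and Eif5 (adjusted p 0.0559 to 0.157). Without control libraries 1 and 2 of 4.5 weeks it was no longer called for Eef1b2, Eef2, Eif2b1, Eif2b3, Eif2b5 and Eif3e (adjusted p 0.052 to 0.117). Groups of 3 libraries were not searched for outlying samples.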

How the results depend on the processing

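No result changed sign while called. Against a 1.5-fold change, 2 members were called at 4 weeks (2 higher, 0 lower), 13 at 4.5 weeks (11 higher, 2 lower), 3 in the difference of effects (1 higher, 2 lower) and 0 between the control groups (0 higher, 0 lower). With a sex term, which at 4 weeks rests on 1 cKO library without Xist, 23 members were called at 4 weeks, 9 were lower in the difference of effects, and 0 were called between the control groups (0 higher, 0 lower, and 16 in edgeR's main test). No gene tested was called between the control groups with that term, so its count there is not particular to the members. Between the control groups, DESeq2's Wald test called 26 (11 higher, 15 lower), upper quartile scaling gave 15 lower, the length trend left 6 (3 higher, 3 lower), and without control libraries 1 and 2 of 4.5 weeks 0 were called (0 higher, 0 lower). The median of Eef and Eif3 minus that of the others at 4 weeks, 0.1217, was 0.1538 for the narrower set and 0.08968 with the length trend removed. The causes were not tested.

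Leaving out each library in turn gave 26 to 32 members called at 4 weeks (24 to 29 higher, 2 to 3 lower), 39 to 43 at 4.5 weeks (26 to 30 higher, 12 to 13 lower), 24 to 27 in the difference of effects (11 to 13 higher, 13 to 16 lower) and 6 to 19 between the control groups (2 to 9 higher, 4 to 14 lower). The difference of medians ran from 0.06418 to 0.1311 at 4 weeks and from 0.1587 to 0.2258 at 4.5 weeks. Apart from the 1.5-fold test, 19 of 32 calls at 4 weeks, 33 of 42 at 4.5 weeks and 17 of 25 in the difference of effects held under every alternative run.

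Same-numbered libraries did not deviate together (correlations -0.165 to -0.009 at 4 weeks and -0.003 to 0.057 at 4.5 weeks). With the replicate block 31, 42 and 24 members were called at 4 weeks, at 4.5 weeks and in the difference, and 9 between the control groups (3 higher). Each time fitted alone gives no value for comparisons across times. Depth limits Eif4ebp3, Eef1akmt4 and Eif3j2, which lie at a few CPM.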
